A study of Mus musculus with 16 samples.

Results

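Retinal microglia were compared between early adulthood, at 3 months, and midlife, at 12 months, on 8 of the 16 arrays of a study of ageing in the mouse retina. The members were chosen by the age in each array's label, 4 arrays at 3 months and 4 at 12 months, and all 16755 features of the table were kept. All mice were wild type and of strain C57BL/6, and no treatment is given. The sort used flow cytometry with an antibody to CD11b, an integrin that microglia share with monocytes, macrophages, neutrophils and natural killer cells. Under 5 ng of total RNA was amplified for each array, and levels are log2 values, so that a difference of 1 is a doubling. Arrays of 1 age are labelled as biological replicates, but the number of animals behind each is not stated, so the p-values cover only the spread among these samples.

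Microglia are the resident macrophages of the retina. In the healthy tissue they lie mainly in the plexiform layers, survey the synapses with motile processes, engulf debris and synaptic material, and depend on signalling through the receptor Csf1r. Photoreceptors outnumber them greatly, and rods carry very abundant messages for the proteins of phototransduction, so a sort of retinal microglia can also hold rod RNA.

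Array medians ran from 7.04 to 7.13 at 3 months and from 7.04 to 7.18 at 12 months. Spearman correlations between pairs of the 8 arrays, across features, lay between 0.86 and 0.95. The labels also carry a running array number whose meaning they do not state. It was between 1 and 8 for all 4 arrays at 12 months and for 3-month replicates 1 and 2, and was 15 and 16 for 3-month replicates 3 and 4.

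The defining genes of microglia stood near the top of the scale at both ages. Cx3cr1, the receptor of the neuronal chemokine fractalkine, measured 12.73, 12.05, 12.71 and 12.72 on the 3-month arrays and 12.75, 12.62, 12.81 and 12.05 on the 12-month arrays. Each age had 1 array below the other 3, and the ages overlapped completely. The difference in Cx3cr1 was 0.00 with a 95% interval from −1.30 to 1.31. P2ry12, a receptor for nucleotides that steers the processes, measured 12.21, 11.20, 11.94 and 12.12 at 3 months and 11.87, 12.26, 12.38 and 11.37 at 12 months. The low array was again replicate 2 at 3 months and replicate 4 at 12 months. Itgam, the gene of CD11b itself, stood at 9.97 ± 0.99 (SD, n = 4) and 9.54 ± 0.63, and its interval ran from −2.04 to 1.17. Csf1r stood at 12.05 ± 0.21 and 11.74 ± 0.50, Aif1, which encodes Iba1, at 12.32 ± 0.47 and 12.22 ± 0.35, and Trem2, a lipid-sensing receptor, at 9.64 ± 0.37 and 9.48 ± 0.60. None of these genes passed the test, and intervals this wide do not show that their levels were the same.

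The rod genes Pde6b and Gnat1 differed more within the 3-month group than between the ages, and Gnat1 stood above the array median on every array. Pde6b, a subunit of the rod phosphodiesterase, measured 10.60, 11.38, 7.77 and 7.21 at 3 months and 10.91, 10.60, 11.03 and 11.70 at 12 months. Gnat1, rod transducin, measured 12.53, 13.21, 10.10 and 8.90 at 3 months and 12.61, 12.06, 12.50 and 13.29 at 12 months. In both genes 3-month replicates 3 and 4 stood below the other 6 arrays, while 3-month replicates 1 and 2 lay within the range of the 12-month arrays. The difference in Pde6b was 1.82 (SE 0.737) over all 8 arrays and 0.07 without 3-month replicates 3 and 4, and the difference in Gnat1 went from 1.43 to −0.25. Neither passed the test after Benjamini-Hochberg adjustment over all features in limma, with adjusted p = 1.00 for both.

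The rod list as a whole set the same pair of arrays apart. Its score averages 19 measured genes of 22 listed, each expressed relative to its own mean across the 8 arrays. The score was 0.35, 1.23, −1.55 and −1.96 at 3 months and 0.32, 0.03, 0.46 and 1.13 at 12 months. All 19 genes were higher on average at 12 months, where 41.2% of all features were higher, and the median difference was 0.93. The highest rod scores, 1.23 and 1.13, were those of 3-month replicate 2 and 12-month replicate 4, the arrays low in Cx3cr1. Without 3-month replicates 3 and 4 the rod median was −0.30. Leaving out 3-month replicate 2, the one with the most rod RNA among the 4, moved it to 1.75, leaving out replicate 3 to 0.58 and leaving out replicate 4 to 0.55. On the array where it was lowest, the mean level of the rod list was still 7.90, above the median of all features.

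Promoters of rod genes are shown because rod genes set the arrays apart. Crx and Otx2, homeobox factors of photoreceptors, are known to bind the letters TAATCC. In the 250 bases before the start of each gene, taken from RefSeq on build GRCm38.p6, TAATCC or its reverse complement GGATTA was found on 4 of the 12 rod genes with a promoter entry (33.3%). The share was the same for cone genes, 3 of the 9 with an entry (33.3%), and Guca1a is on both lists. It was found on 0 of 21 homeostatic microglia genes with an entry and on 1949 of all 27025 genes (7.21%). A match is a description of these letters and not a binding site. The 120 bases before the start are printed 5′ to 3′ on the strand of the gene, with the matches in capitals. Sag encodes rod arrestin (chr1:87803560-87803679, plus strand), Gngt1 the gamma subunit of rod transducin (chr6:3993888-3994007, plus strand), Guca1a a guanylate cyclase activator (chr17:47400607-47400726, minus strand) and Cngb1 the beta subunit of the rod cation channel (chr8:95306586-95306705, minus strand).
Sag: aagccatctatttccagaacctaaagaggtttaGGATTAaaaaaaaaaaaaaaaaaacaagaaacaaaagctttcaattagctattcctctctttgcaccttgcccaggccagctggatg
Gngt1: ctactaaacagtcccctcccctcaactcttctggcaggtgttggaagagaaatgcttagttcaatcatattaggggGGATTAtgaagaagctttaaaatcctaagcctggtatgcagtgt
Guca1a: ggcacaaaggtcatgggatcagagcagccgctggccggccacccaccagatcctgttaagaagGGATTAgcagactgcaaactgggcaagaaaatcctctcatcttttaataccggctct
Cngb1: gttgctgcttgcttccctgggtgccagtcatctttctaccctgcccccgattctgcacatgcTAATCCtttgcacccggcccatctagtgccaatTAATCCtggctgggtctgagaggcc
Positions were counted from the start of the gene and only within the 120 printed bases. There the match farthest upstream began at position −87 in Sag, −44 in Gngt1, −57 in Guca1a and −58 in Cngb1, where 2 matches were found. Sag itself measured 11.55, 12.29, 8.24 and 8.13 at 3 months and 11.52, 11.18, 11.38 and 12.11 at 12 months, the same pair of low arrays as in Pde6b.

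**Figure D1:**
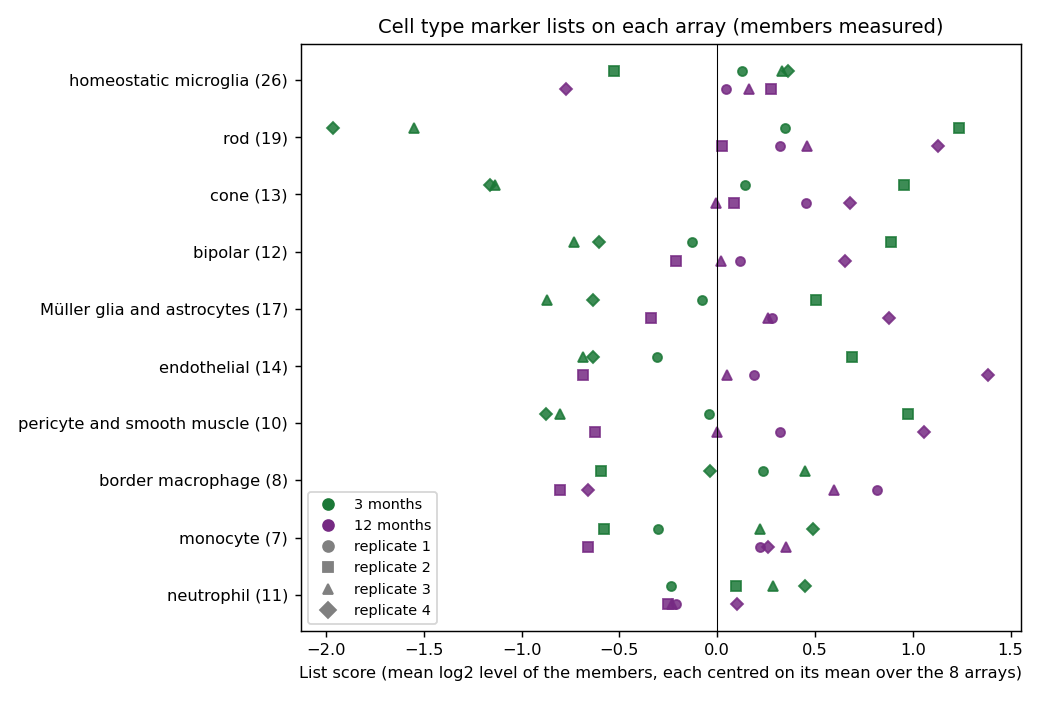
List scores (mean of centred log2 levels) on each of the 4 arrays at 3 months and the 4 arrays at 12 months, for microglia genes and for genes of other retinal and blood cells. The rod score was −1.55 and −1.96 on 3-month replicates 3 and 4 and lay between 0.03 and 1.23 on the other 6 arrays, while 3-month replicate 2 (−0.53) and 12-month replicate 4 (−0.77) had the lowest scores for homeostatic microglia genes.

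Cone, bipolar cell, amacrine cell and Müller glia genes had their lowest scores on the same pair of arrays. Horizontal cell, ganglion cell and pigment epithelium genes did not. On 3-month replicates 3 and 4 the score was −0.73 and −0.61 for bipolar cells and −0.44 and −0.40 for amacrine cells. On the same arrays it was −0.28 and 0.03 for horizontal cells, −0.04 and −0.11 for ganglion cells and 0.02 and −0.14 for pigment epithelium. The cone score was −1.14 and −1.16 on 3-month replicates 3 and 4 and between −0.01 and 0.95 on the other arrays. The Müller glia and astrocyte score was −0.87 and −0.63 on that pair, with 15 of 17 genes higher at 12 months and a median difference of 0.47. Arr3, cone arrestin, measured 10.15, 11.04, 6.37 and 7.97 at 3 months and 10.37, 10.50, 10.17 and 10.50 at 12 months. Glul, glutamine synthetase of Müller glia, was bright throughout, at 12.99 ± 0.33 and 13.13 ± 0.19. Sox2, a transcription factor of these glia, measured 7.41, 8.26, 6.29 and 6.67 at 3 months and 8.94, 7.40, 8.81 and 10.05 at 12 months. Sox2 thus stood low on the same pair of arrays, but its 12-month levels also exceeded 3-month replicate 1 in 3 of 4 arrays, and its difference was 1.64 over all arrays and 0.96 without the pair.

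Some vascular genes split the arrays in another way. Rgs5 (feature 6755055), a gene of pericytes, measured 12.12, 12.62, 5.60 and 5.29 at 3 months and 11.20, 6.87, 11.91 and 12.47 at 12 months. This feature was low on 3-month replicates 3 and 4 and also on 12-month replicate 2, and high on the other 5 arrays. Another feature of Rgs5, 6755054, measured 8.33, 9.35, 6.89 and 6.20 at 3 months and 8.79, 8.26, 8.47 and 10.40 at 12 months. On that feature 12-month replicate 2 lay beside 3-month replicate 1, and only 3-month replicates 3 and 4 were low. Flt1, a receptor for vascular endothelial growth factor, measured 8.22, 10.70, 6.85 and 6.81 at 3 months and 9.99, 6.93, 9.65 and 11.32 at 12 months. Flt1 was low on 3-month replicates 3 and 4 and on 12-month replicate 2. The endothelial list had 10 of 14 genes higher at 12 months with a median difference of 0.42, which became −0.02 without 3-month replicates 3 and 4. The cause of the unequal amounts was not tested.

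Blood-derived cells that carry CD11b were checked with the same kind of list. S100a8 and S100a9, calcium-binding proteins of neutrophils and monocytes, were highest on the pair of arrays poorest in rod RNA. S100a9 measured 5.76, 6.43, 8.82 and 10.06 at 3 months and 6.20, 5.70, 6.27 and 7.79 at 12 months. S100a8 measured 5.00, 5.10, 6.41 and 7.72 at 3 months and 5.15, 4.89, 5.08 and 4.97 at 12 months, so that only 3-month replicates 3 and 4 left the range near the floor. The neutrophil list had 1 gene higher and 10 lower at 12 months, with a median difference of −0.13. The monocyte list had 3 genes higher and 4 lower, also with a median difference of −0.13. For 0 of these 7 monocyte genes did the 95% interval lie within −1 to 1, against 79.3% of all features. Mrc1, the mannose receptor of border macrophages, measured 10.46, 8.78, 10.66 and 10.50 at 3 months and 10.99, 8.86, 10.94 and 8.68 at 12 months, and the border macrophage list had a median difference of −0.10. The T cell, B cell, natural killer cell, dendritic cell and erythroid lists had medians between −0.18 and 0.03. In bulk RNA, fewer cells of a type and less RNA per cell cannot be told apart.

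Across all 16755 features, 0 (0%) passed an adjusted p under 0.05 between 12 and 3 months in limma, and the smallest adjusted p was 0.450. At an unadjusted p under 0.05 there were 793 features (4.73%), 237 higher (1.41%) and 556 lower (3.32%) at 12 months. The levels of the 2 ages did not overlap in 449 features (2.68%), 101 higher (0.603%) and 348 lower (2.08%). The median difference over all features was −0.04 and the median SE 0.185. For 13279 features (79.3%) the 95% interval of the difference lay within −1 to 1, a change of less than 2-fold either way.

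The precision differed with the level of a feature. Among the 5585 dimmest features 94.8% of the intervals lay within −1 to 1, against 59% among the 5585 brightest, where microglia and rod messages stand. RMA compresses differences at low levels, so a narrow interval among the dimmest features does not by itself show an unchanged message. The 5585 dimmest held 28 higher and 221 lower features at an unadjusted p under 0.05, and the 5585 brightest 143 and 198. On the fitted scale the larger differences went the other way, with 177 features (1.06%) more than 1 higher at 12 months and 56 (0.334%) more than 1 lower.

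The features past 1 on the higher side were mostly those that were low on a pair of 3-month arrays. Of the 177, 112 (63.3%) were lower on both 3-month replicates 3 and 4 than on each of the other 6 arrays, against 855 of all features (5.1%) and 17 of the 19 rod genes (89.5%). None of the 56 features on the lower side and none of the 26 homeostatic microglia genes had this pattern. Without that pair of arrays 41 of the 177 were still more than 1 higher, and 28 of the 56 were still more than 1 lower. These counts describe features picked by their difference and carry no test.

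**Figure D2:**
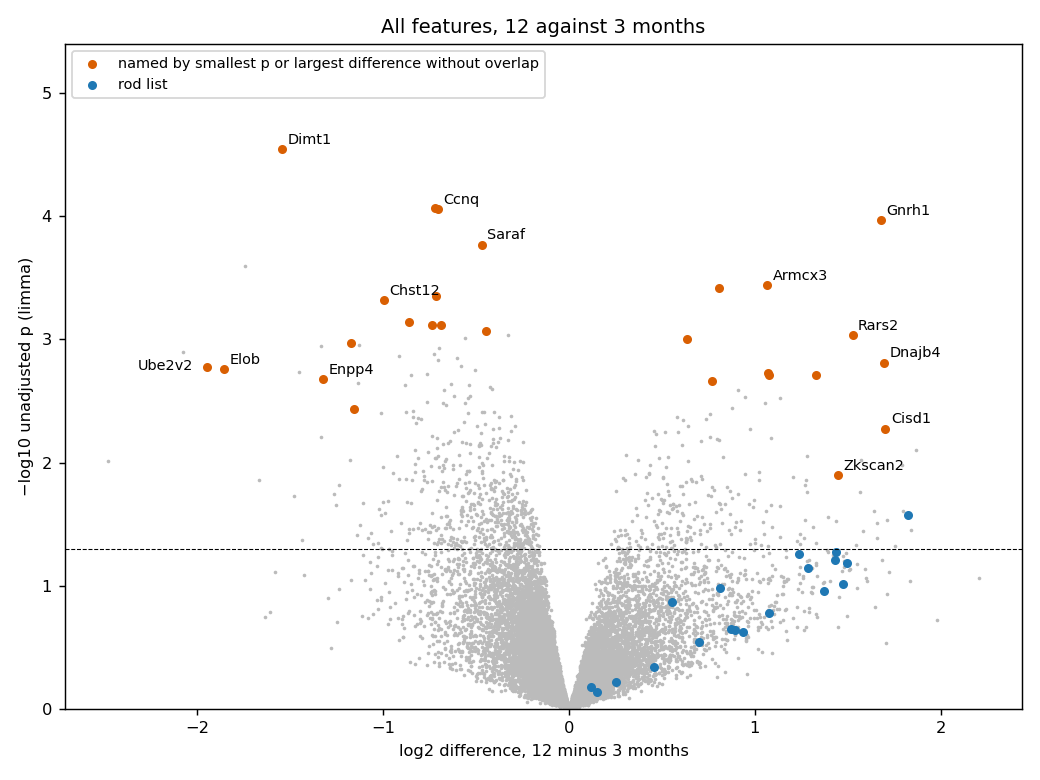
Difference between 12 and 3 months (log2, horizontal axis) against −log10 of the unadjusted limma p (vertical axis) for all 16755 features, with rod genes in blue, the named genes in orange and a dashed line at an unadjusted p of 0.05. No feature passed the adjusted threshold, and the rod genes all lay to the right of 0, up to 1.82.

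Gnrh1 (feature 6819958, chromosome 14), the precursor of gonadotropin-releasing hormone, had the smallest p among the features higher at 12 months. It measured 6.31, 6.45, 6.08 and 5.77 at 3 months and 7.45, 7.91, 7.61 and 8.35 at 12 months. All 12-month arrays lay above all 3-month arrays. The difference was 1.68 (SE 0.315, 95% interval 1.00 to 2.35) with adjusted p = 0.450, and it was 1.45 without 3-month replicates 3 and 4. Adding the rod score to the fit as a covariate gave 1.53. Gnrh1 did not pass the test.

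Other genes with small p-values on this side also separated the ages. Rars2, the mitochondrial arginyl-tRNA synthetase, measured 7.50, 7.36, 7.53 and 8.52 at 3 months and 9.17, 9.36, 9.63 and 8.85 at 12 months. Armcx3, an outer membrane protein involved in mitochondrial transport, measured 9.32, 9.24, 9.29 and 8.70 at 3 months and 10.20, 10.10, 9.85 and 10.66 at 12 months. Ttc19, an assembly factor of respiratory complex III, measured 7.76, 8.08, 6.90 and 7.20 at 3 months and 8.48, 8.97, 8.59 and 9.19 at 12 months. The ages did not overlap in any of the 3, and the differences were 1.53 (SE 0.365), 1.07 (SE 0.228) and 1.33 (SE 0.349), with adjusted p = 0.862, 0.796 and 0.862 in limma. Without 3-month replicates 3 and 4 these differences were 1.82, 0.92 and 0.89. With the rod score as covariate they were 1.58, 0.85 and 0.92. Cisd1, the outer membrane iron-sulfur protein mitoNEET, had the largest difference among non-overlapping genes of this side. It measured 9.61, 9.04, 10.61 and 8.71 at 3 months and 11.43, 11.38, 10.61 and 11.34 at 12 months, with 12-month replicate 3 and 3-month replicate 3 equal to 2 decimals, and its difference of 1.70 (SE 0.517) had adjusted p = 1.00.

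Dnajb4, a co-chaperone of Hsp70, measured 9.29, 7.24, 8.54 and 9.21 at 3 months and 10.27, 10.10, 10.05 and 10.62 at 12 months. Its 12-month arrays lay close together above a wide 3-month group. The difference of 1.69 (SE 0.433) became 1.76 after adding the rod score as a covariate, and it ran from 1.13 to 2.00 over 22 alternatives. Ccna2, cyclin A2 of the S and G2 phases, measured 6.64, 6.67, 6.50 and 6.05 at 3 months and 7.57, 7.83, 7.00 and 7.73 at 12 months. It had a difference of 1.07 (SE 0.280), again without overlap. The other genes of this side by the smallest p-values were Klhl18, an adaptor of cullin ubiquitin ligases, Osbpl7, an oxysterol-binding protein relative, Gemin7 of the SMN complex, and Sra1, with differences of 0.81, 0.64, 1.08 and 0.77. Zkscan2, a zinc finger gene, was named for its size and stood at 6.76 ± 0.29 and 8.21 ± 0.99. All of these had adjusted p between 0.796 and 1.00 and did not pass.

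Among the features lower at 12 months, Dimt1 (feature 6915037), annotated as an RNA methyltransferase of ribosome assembly, had the smallest p. It measured 7.62, 7.94, 7.14 and 7.67 at 3 months and 5.89, 6.25, 5.70 and 6.36 at 12 months. The lowest 3-month array lay clearly above the highest 12-month array. The difference was −1.54 (SE 0.254, 95% interval −2.085 to −0.997) with adjusted p = 0.450, and −1.73 without 3-month replicates 3 and 4. The identity of this feature is uncertain: Dimt1 is on chromosome 13, but all 10 features with the nearest feature numbers carry genes of chromosome 4, and 59 of 14941 features with 1 symbol and a chromosome had a chromosome unlike all 10 of their neighbours.

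Ube2v2, a partner of the ubiquitin-conjugating enzyme Ube2n, measured 10.24, 9.78, 11.59 and 9.98 at 3 months and 7.04, 9.20, 9.05 and 8.51 at 12 months. Elob, elongin B of the elongin complex and of cullin ubiquitin ligases, measured 9.71, 10.12, 9.80 and 10.10 at 3 months and 8.75, 6.66, 8.20 and 8.71 at 12 months. Both were lower on every 12-month array, with 1 array far below the rest, and the differences were −1.95 (SE 0.502) and −1.85 (SE 0.480). Rnf114, a ubiquitin ligase, measured 8.19, 8.66, 8.43 and 8.68 at 3 months and 7.61, 7.64, 7.50 and 7.78 at 12 months, a smaller but tighter difference of −0.86 (SE 0.199). All 3 had adjusted p = 0.862.

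Saraf, which limits store-operated calcium entry, had the smallest SE of these genes. It measured 9.49, 9.72, 9.46 and 9.55 at 3 months and 9.19, 9.21, 8.92 and 9.03 at 12 months, a difference of −0.47 (SE 0.0926) with adjusted p = 0.569. Tkt, transketolase of the pentose phosphate pathway, measured 8.00, 8.16, 8.42 and 8.38 at 3 months and 7.57, 7.27, 8.00 and 7.26 at 12 months. In Tkt 12-month replicate 3 reached the level of 3-month replicate 1, and the difference was −0.71 with adjusted p = 0.806. Txn1, thioredoxin, stood low on this array at 6.40 ± 0.32 and 5.72 ± 0.23 and overlapped as well. Fam243, Ccnq, a cyclin that partners Cdk10, Chst12, a chondroitin sulfotransferase, Tmem198b and Cep295nl differed by −0.72, −0.71, −0.99, −0.73 and −0.45 without overlap. Enpp4, an ectonucleotide pyrophosphatase, Tgds and Tmcc3 were named for their size, at −1.32, −1.17 and −1.16. None passed, with adjusted p between 0.450 and 0.977 among these 11 genes.

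**Figure D3:**
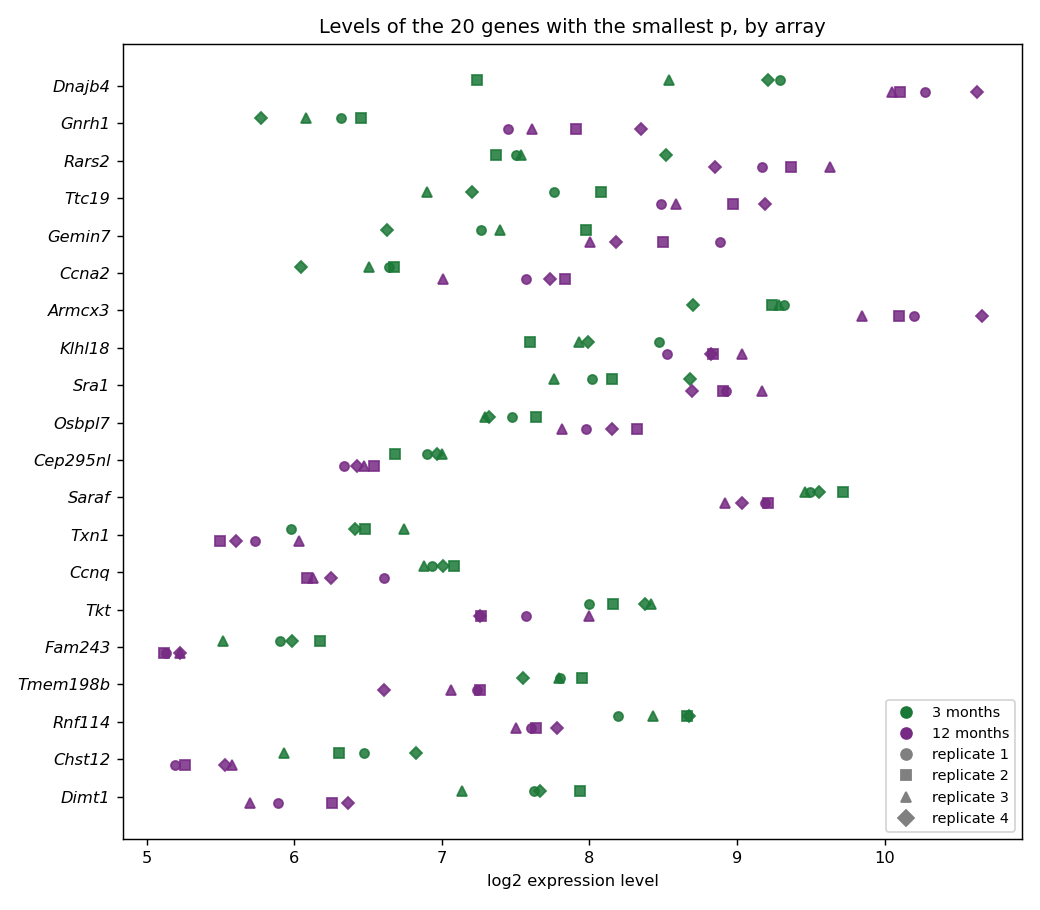
Levels (log2, horizontal axis) on the 4 arrays at 3 months and the 4 arrays at 12 months, for the 20 genes with the smallest p, each point 1 array, with colour for the age and shape for the replicate. Gnrh1 had means of 6.15 and 7.83 and Dimt1 of 7.59 and 6.05, with no overlap between the ages in either.

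The gene groups of microglial function showed small differences beside that spread, and 0 members of any list passed the adjusted test. Of 26 homeostatic microglia genes measured of 28 listed, 6 were higher and 20 lower at 12 months, where 58.8% of all features were lower. Their median difference was −0.15, and 5 of the 26 had an interval within −1 to 1. Among them the surface receptors had a median of −0.20 over 13 genes and the transcription factors of −0.11 over 6. Cst3, cystatin C, was the brightest at 13.62 ± 0.07 and 13.56 ± 0.16. Sall1, a transcription factor that keeps microglial identity, stood at 10.10 ± 0.40 and 9.71 ± 0.93, and Spi1, which encodes PU.1, at 9.01 ± 0.29 and 9.03 ± 1.29. The homeostatic median depended on the array lowest in these genes at each age: dropping 3-month replicate 2 gave −0.34 and dropping 12-month replicate 4 gave 0.03. Dropping 3-month replicates 3 and 4 gave 0.05, and a fit with the rod score as covariate gave 0.41, so its direction was not settled.

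Genes that microglia are known to raise around amyloid plaques or dying neurons made up the disease-associated list, with 5 higher and 14 lower of 19 and a median of −0.10. Tyrobp, the signalling adaptor of Trem2, stood at 13.22 ± 0.23 and 13.17 ± 0.20. Apoe stood at 11.83 ± 0.34 and 11.68 ± 0.44, and Axl, a receptor for apoptotic cells, at 9.03 ± 0.18 and 8.53 ± 0.33. The chemokine Ccl3 measured 11.24, 8.64, 10.81 and 10.80 at 3 months and 11.74, 11.40, 11.46 and 10.05 at 12 months, and the low array of each age was again the one low in microglia genes. Of 20 phagocytosis genes 6 were higher and 14 lower, with a median of −0.12. In the lysosome and autophagy list 10 were higher and 19 lower, with a median of −0.09. Without 3-month replicates 3 and 4 the disease-associated, phagocytosis and lysosome medians were 0.02, 0.10 and 0.02. With the rod score as covariate they were 0.19, 0.20 and 0.19, so their direction was not settled. Ctss, cathepsin S, stood at 13.20 ± 0.11 and 13.17 ± 0.18, and the autophagy receptor gene Sqstm1 at 9.26 ± 0.46 and 8.77 ± 0.22.

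Complement genes had 5 higher and 10 lower of 15, with a median of −0.03. C1qc, a chain of the first component C1q, stood at 12.26 ± 0.21 and 12.15 ± 0.27, and C1qa at 10.34 ± 0.48 and 10.24 ± 0.83. Clu, clusterin, which retinal glia also express, differed by 1.10 over all arrays and by −0.30 without 3-month replicates 3 and 4. The 33 genes of cytokines and NF-kB had a median of −0.08, with Il1b at 7.47 ± 0.88 and 7.58 ± 0.52 and Tnf at 8.17 ± 0.58 and 7.72 ± 1.03. The 25 chemokine genes also had a median of −0.08, the 15 ligands 0.05 and the 10 receptors −0.15. These lists held 0, 0 and 1 genes at an unadjusted p under 0.05, where 4.73% of all features stood, the last being Cxcr2, a receptor of neutrophils, with a difference of −0.41.

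In the list of pattern recognition receptors 2 of 28 genes (7.14%) had an unadjusted p under 0.05, near the share of all features (4.73%). They were Myd88, an adaptor of Toll-like receptors, and Traf6, a ubiquitin ligase downstream of it. Myd88 measured 6.98, 6.42, 7.46 and 7.21 at 3 months and 7.60, 8.41, 8.37 and 7.78 at 12 months. Traf6 measured 7.15, 6.80, 7.10 and 7.94 at 3 months and 7.60, 8.07, 8.55 and 7.87 at 12 months. Myd88 did not overlap between the ages, Traf6 did on 3-month replicate 4, and the differences were 1.02 (SE 0.363) and 0.78 (SE 0.286), each with adjusted p = 1.00. Without 3-month replicates 3 and 4 they were 1.34 and 1.05. The 12 Toll-like receptors themselves had a median of 0.05 and the 9 inflammasome and other sensors of −0.13. The DNA sensor gene Aim2 stood at 12.04 ± 0.72 and 11.91 ± 0.50. Naip2, a sensor of bacterial secretion systems, measured 9.32, 9.15, 9.29 and 9.80 at 3 months and 8.58, 9.14, 8.68 and 7.13 at 12 months, lower on every array with 1 array far below.

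Type I interferon genes had 9 higher and 10 lower of 19, with a median of −0.09. Ifit1, an interferon-induced protein that binds viral RNA, measured 9.22, 7.84, 6.11 and 7.36 at 3 months and 5.62, 6.06, 6.01 and 6.17 at 12 months. The 12-month arrays were close together, and the 3-month arrays spread upwards from that level with replicate 3 inside the 12-month range. Its difference was −1.66 (SE 0.592) with adjusted p = 1.00. Irf7, a regulator of interferon genes, stood at 7.01 ± 0.55 and 6.92 ± 0.36, and the receptor gene Ifnar2 at 11.54 ± 0.20 and 11.63 ± 0.37. Antigen presentation genes had 2 higher and 14 lower of 16, where 58.8% of all features were lower, and a median of −0.19. The median was −0.03 without 3-month replicates 3 and 4 and 0.11 with the rod score as covariate. For MHC class II the median went from −0.29 to −0.09 and 0.31 in these 2 alternatives, and for class I from −0.19 to −0.14 and −0.02. Over all arrays, all 5 genes of MHC class II and all 6 of class I were lower on average. H2-Ab1 stood at 9.55 ± 0.59 and 9.27 ± 0.84, B2m at 13.80 ± 0.03 and 13.78 ± 0.13, and the peptide transporter gene Tap2 at 7.22 ± 0.17 and 6.88 ± 0.17.

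**Figure D4:**
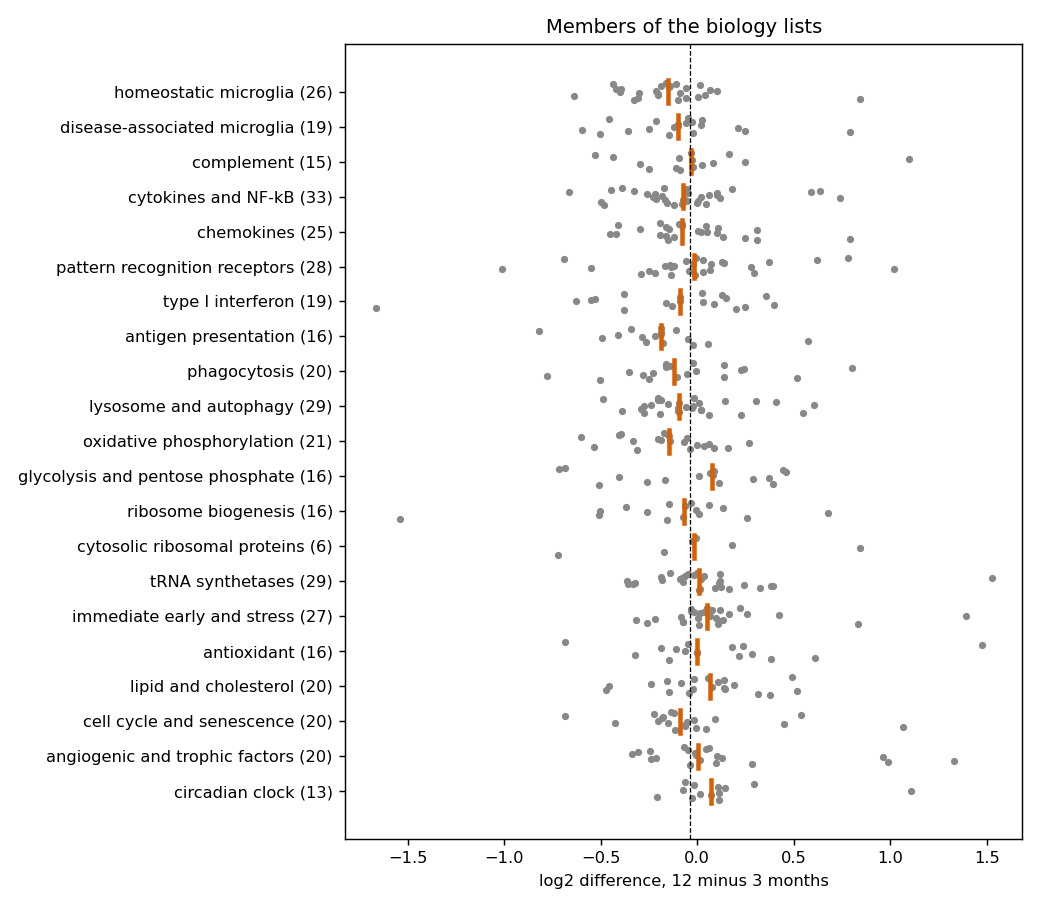
Differences between 12 and 3 months (log2) of the measured members of each list, 1 point per gene, with an orange bar at the list's median and a dashed line at the median of all features (−0.04). Medians ran from −0.19 for antigen presentation to 0.07 for glycolysis and pentose phosphate genes.

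Metabolic and housekeeping groups had small median differences. Of 21 genes of oxidative phosphorylation, 5 were higher and 16 lower, with a median of −0.14, and 18 had an interval within −1 to 1. Uqcrc2 of complex III stood at 10.31 ± 0.35 and 9.91 ± 0.26 and Sdhb of complex II at 8.76 ± 0.64 and 8.16 ± 0.50. The oxidative phosphorylation median was −0.19 without 3-month replicates 3 and 4 and −0.25 in the fit with the rod score. Glycolysis and pentose phosphate genes had 10 higher and 6 lower of 16. Taldo1, transaldolase, which acts beside transketolase, stood at 9.52 ± 0.77 and 9.97 ± 0.24. Its mean was higher at 12 months, where the mean of Tkt was lower, but neither gene passed the adjusted test.

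Rars2 and Dimt1 were read within their groups. The 29 aminoacyl-tRNA synthetase genes had 16 higher and 13 lower and a median of 0.01. Of the 15 mitochondrial ones 9 were higher and 6 lower, and besides Rars2 the gene for mitochondrial histidyl-tRNA synthetase, Hars2, had an unadjusted p under 0.05 (all features 4.73%), at 7.75 ± 0.32 and 8.13 ± 0.12. The 16 ribosome biogenesis genes had a median of −0.07. Ncl, nucleolin, stood at 12.76 ± 0.07 and 12.68 ± 0.06, while Nop56, a core protein of box C/D particles, stood at 8.19 ± 0.56 and 8.87 ± 0.37 and Pes1, a factor of the large subunit, at 8.38 ± 0.40 and 7.88 ± 0.44. Rps9 led the 6 measured ribosomal protein genes, at 12.74 ± 0.16 and 12.73 ± 0.11.

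The 20 genes of the cell cycle and senescence list had 5 higher and 15 lower and a median of −0.09. At an unadjusted p under 0.05 there were 4 of the 20, against 4.73% of all features, a count that carries no test. Beside Ccna2, the p53 targets Mdm2 and Ccng1 were higher at 12 months, by 0.54 (SE 0.217) and 0.45 (SE 0.205), and Mcm6 of the replicative helicase was lower, at 8.01 ± 0.51 and 7.32 ± 0.23. The 13 cell cycle genes had 2 higher, Ccna2 among them, and 11 lower, with a median of −0.12. Cdkn2a and Cdkn1a, inhibitors of cyclin-dependent kinases used as markers of senescence, differed by −0.20 and −0.15. None passed the adjusted test.

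Immediate early and stress genes, which cell preparation is known to induce, had 18 higher and 9 lower of 27 and a median of 0.05. Hspa1a, an inducible Hsp70 gene with a near-identical copy, measured 7.27, 7.16, 6.99 and 6.32 at 3 months and 8.35, 6.96, 8.98 and 9.03 at 12 months. It was higher on 3 of the 12-month arrays and inside the 3-month range on replicate 2. Prdx2, a peroxidase, measured 9.22, 5.99, 8.30 and 9.98 at 3 months and 10.61, 9.65, 8.83 and 10.28 at 12 months, and Nfe2l2, the regulator of antioxidant genes, stood at 11.09 ± 0.55 and 10.91 ± 0.43. The antioxidant list had a median of −0.00, the lipid and cholesterol list of 0.07, the list of angiogenic and trophic factors of 0.00 and the circadian clock list of 0.07. Among angiogenic genes the hypoxia factor Epas1 and the receptor Kdr differed by 0.99 and 0.96 over all arrays and by 0.02 each without 3-month replicates 3 and 4. In the lipid list Dhcr7, of the last step of cholesterol synthesis, stood at 7.92 ± 0.34 and 7.44 ± 0.41. In the clock list Hlf differed by 1.11 over all arrays and by 0.32 without 3-month replicates 3 and 4.

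The 12-month level was also set beside the later ages in the same fit. Against 18 months 1 of 16755 features (0.00597%) passed, and against 24 months 0 (0%). The feature that passed was Tctex1d4, named here after its values were seen, which stood at 6.09 ± 0.18 at 3 months, 6.46 ± 0.12 at 12 months, 5.52 ± 0.18 at 18 months and 5.65 ± 0.18 at 24 months. Its difference between 18 and 12 months was −0.95 with adjusted p = 0.0384 in limma. The running array number was between 9 and 16 for all 4 arrays at 18 months and between 1 and 8 for all 4 at 12 months. In any comparison of these 2 ages, age and array number therefore cannot be told apart. At 3 months Tctex1d4 measured 6.18, 6.29, 5.98 and 5.91, lower on replicates 3 and 4, which carry the numbers 15 and 16.

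Some genes that were low at 12 months stood at the 3-month level later. Ube2v2 had means of 10.40 ± 0.82 at 3 months, 8.45 ± 0.98 at 12, 10.81 ± 0.55 at 18 and 10.75 ± 0.63 at 24 months. Enpp4 had means of 9.12 ± 0.42, 7.80 ± 0.75, 9.36 ± 0.36 and 8.96 ± 0.50. Against 12 months, the 18-month levels were 2.36 and 1.56 higher with adjusted p = 0.083 for both genes, and the 24-month levels 2.29 and 1.16 higher with adjusted p = 0.268, so neither passed. At these later ages Dimt1 stood between its 3-month and 12-month means, at 6.65 ± 0.36 and 6.83 ± 0.48. Among the genes higher at 12 months, Osbpl7 stood at 7.43 ± 0.16, 8.06 ± 0.22, 7.50 ± 0.29 and 7.38 ± 0.16, and Gemin7 at 7.32 ± 0.55, 8.39 ± 0.39, 7.28 ± 0.32 and 7.59 ± 0.40. Gnrh1 stood at 7.56 ± 0.52 at 18 and 6.97 ± 0.62 at 24 months, Rars2 at 8.88 ± 0.36 and 8.90 ± 0.84, and Dnajb4 at 10.55 ± 0.54 and 10.30 ± 0.68. The comparisons share the 12-month arrays, and these genes were chosen for their difference at 12 months. Microglia and rod RNA also differed in mean between these ages. Cx3cr1 stood at 12.55 ± 0.35 at 12, 11.64 ± 1.14 at 18 and 11.97 ± 1.38 at 24 months. Gnat1 stood at 12.61 ± 0.51, 13.32 ± 0.46 and 13.18 ± 0.29, and neither gene passed against 12 months. Whether this bears on the named genes at the later ages was not tested.

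**Figure D5:**
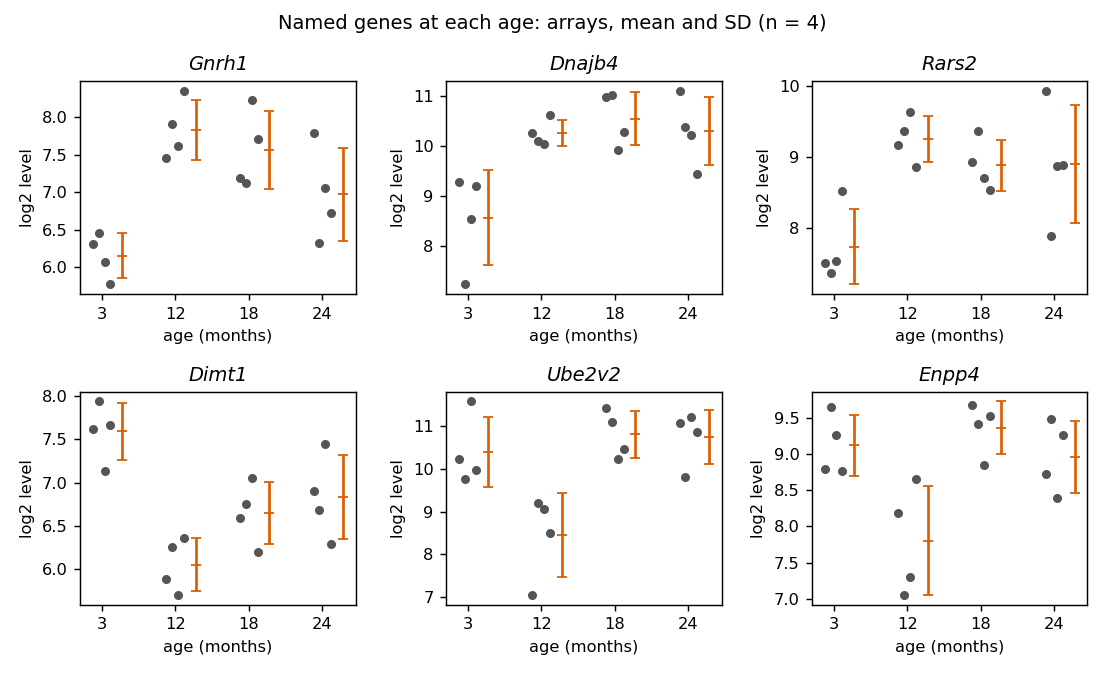
Level (log2) on each of 4 arrays (points), with the mean and SD (orange), at 3, 12, 18 and 24 months for selected named genes. Ube2v2 and Enpp4 were lowest at 12 months (8.45 and 7.80), and Gnrh1 was highest there (7.83).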

How the data were processed

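Per the submitters' processing notes, the deposited values are log2 expression levels that the authors made with RMA, which subtracts background, equalises the arrays at probe level and summarises probes. Its version and probe sets count as not given in the sources used here. Small amounts of RNA (under 5 ng) were amplified, which can widen the spread between replicates, and RMA compresses differences at low levels.

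From the deposited log2 values each of 16755 features was modelled in R 4.3.3 with limma 3.58.1 (lmFit, eBayes), with 1 mean per age over all 16 arrays, and p-values were adjusted by Benjamini-Hochberg over all features (threshold 0.05). Nothing was filtered, and 0 columns of values were left out. The number of arrays limits the precision. The fit was tested on simulated data with noise drawn independently for each feature. The spread that many features share on these arrays was not simulated, so that test does not cover it. Symbols came from the array's annotation. Of the features 14996 had 1 symbol, 1019 several and 740 none, and only those with 1 symbol were named. Of these 14941 matched a gene table of GRCm38.p6 by Entrez identifier, with 0 names differing. Rows of a repeated symbol numbered 136 and were kept.

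The genes named were the 10 with the smallest p in each direction, the 6 with the largest difference in each direction without overlap, list members (the brightest and up to 4 with the smallest p first), and genes checking the sort and retinal RNA. Some list members were named beyond this rule after their values were seen. The members and lists were chosen with earlier results of these data known. A list is described by counts and its median, with no test. Alternatives were other normalizations, variance models, array weights, blocks, covariates, left-out arrays and 1 feature per gene. Leaving out 3-month replicate 2 with 12-month replicate 4, and the homeostatic score as a covariate, were added after seeing the data.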

Additional observations from a re-analysis of the deposited data

Results flagged for a closer look

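Groups of 4 arrays were checked for an array far from the other 3, by Dixon's criterion. Of 166 groups, 12 were marked (7.23%), where chance marks about 5% of such groups, and many of the lists share genes and arrays.

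Replicate 2 at 3 months stood apart in 5 of them. It had 12.05 in Cx3cr1, where the other 3 lay from 12.71 to 12.73, 11.61 in Aif1 (others 12.52 to 12.60) and 10.28 in Ptprc, the leukocyte marker CD45 (others 11.66 to 11.74). Its antigen presentation score was −0.38 (others 0.25 to 0.26) and its phagocytosis score −0.39 (others 0.16 to 0.18). Replicate 4 at 3 months stood apart in Armcx3 at 8.70 (others 9.24 to 9.32) and in Rars2 at 8.52 (others 7.36 to 7.53).

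Replicate 4 at 12 months stood apart in Csf1r at 11.00 (others 11.92 to 12.09), in the immediate early and stress score at −0.29 (others 0.15 to 0.20) and in the neutrophil score at 0.10 (others −0.25 to −0.21). Replicate 3 at 12 months had 10.61 in Cisd1 (others 11.34 to 11.43), and replicate 2 at 12 months had −0.66 in the monocyte score (others 0.22 to 0.35).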

How the results depend on the processing

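The number of arrays and the spread in microglia and rod RNA limited what could be measured. No feature passed in 12 against 3 months under any alternative except with the rod score as a covariate, where 1 did: feature 7009941, which has no single symbol, was lower by a fitted −2.75 with adjusted p = 0.0483 (−2.08 and 0.862 without the covariate). Over the 27 named genes, 591 alternative values kept their direction and none passed. The smallest adjusted p of any alternative short of that was 0.0526, with the array number group as a block. The count at an unadjusted p under 0.05 was 487 without the dimmest features (a share of 0.333; 192 higher, 295 lower), 690 over only the 8 arrays, 994 after quantile normalization (348 higher, 646 lower), 998 after median centring (209 higher, 789 lower) and 1111 with array weights. Leaving out each array in turn gave 0 calls, 597 to 1070 features at an unadjusted p under 0.05, a rod median of 0.55 to 1.75 and a homeostatic median of −0.34 to 0.03. The rod median was −0.30 without 3-month replicates 3 and 4 and −0.30 within array numbers 1 to 8, which keeps the same arrays of both ages, and 0.18 with the array number group as a block. The homeostatic median, −0.15 over all arrays, turned positive in the same alternatives: 0.05 without 3-month replicates 3 and 4 or within array numbers 1 to 8, 0.21 with the array number group as a block and 0.41 with the rod score as covariate. Leaving out 3-month replicate 2 with 12-month replicate 4 gave 0 calls, a rod median of 1.50 and a homeostatic median of −0.13, and the homeostatic score as a covariate gave 0 calls and 1118 features at an unadjusted p under 0.05, both chosen after seeing the data. The cause of these shifts was not tested. Same-numbered arrays of the 2 ages correlated in their deviations at −0.08, −0.33, 0.12 and −0.30, and 0 of 4 correlated best with their own number. With the replicate block the fit gave 0 calls, 782 features at an unadjusted p under 0.05, a rod median of 0.93 and a homeostatic median of −0.15, and it changed no call.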

Other observations

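The Y-linked genes Eif2s3y and Kdm5d were measured on all 8 arrays. Eif2s3y stood at 9.51 ± 0.42 at 3 months and 9.46 ± 0.22 at 12 months, and Kdm5d at 8.05 ± 0.52 and 8.32 ± 0.48. The labels do not give the sex of the mice, and the differences of −0.05 and 0.27 did not pass the test.

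Nup98, a nucleoporin gene, had the largest difference of any feature with 1 symbol, −2.48 (95% interval −4.25 to −0.70), chosen after its values were seen. It measured 7.53, 7.40, 10.65 and 10.59 at 3 months and 5.93, 5.89, 5.93 and 8.51 at 12 months. The level was high on 3-month replicates 3 and 4, the arrays poor in rod RNA, and 12-month replicate 4 lay above 3-month replicates 1 and 2. Slc7a11, a cystine transporter gene also chosen in this way, measured 6.68, 6.21, 6.51 and 5.83 at 3 months and 7.13, 8.67, 7.61 and 6.94 at 12 months, without overlap, and differed by 1.28 (SE 0.421). Neither passed the adjusted test.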
